A study of Homo sapiens with 12 samples.

Results

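The dual-specificity MAP kinase phosphatases measured here are DUSP1, DUSP2, DUSP4, DUSP5, DUSP6, DUSP8, DUSP10 and DUSP16, which are 8 of the 10 canonical members of their family. They were found by the Ensembl identifiers of their symbols, 8 of the 60669 identifiers in each table of counts. All 8 were among the 16695 genes kept by a filter on low counts, but DUSP4 was kept through the SIK3 libraries without TNF and at 30 min alone, where it is high, so its entry into the test already required a difference. DUSP4 is therefore described by its counts with no test, and counts of called members are over the other 7.

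The RNA came from PANC-1 cells, an established human line from a pancreatic ductal adenocarcinoma, which were wild type before transfection. Cells were reverse transfected with siRNA for 72 h, and recombinant human TNF-alpha, an inflammatory cytokine, was then given at 100 ng/mL. The 12 libraries form 6 groups of 2 biological replicates. By the words in their file names these are SIK3 siRNA without TNF, with TNF for 30 min and with TNF for 4 h, and Scr1 (control) siRNA without TNF, with TNF for 30 min and with TNF for 4 h. The word CLM in those names was read as no TNF by elimination. The sample titles, which call the targeting siRNA siAS1 and the control siCtrl1, give another condition for 8 of the 12 libraries. Titles and file names name the same condition for the SIK3 4 h libraries and the Scr1 libraries without TNF. The Scr1 30 min libraries are titled siAS1 unstimulated, and the Scr1 4 h libraries siCtrl1 with TNF for 30 min. The SIK3 libraries without TNF are titled siAS1 with TNF for 30 min, and the SIK3 30 min libraries siCtrl1 with TNF for 4 h. Below, "SIK3 libraries" and "Scr1 libraries" follow the file names. 1 cell line was used, and 1 siRNA per target is named in the titles.

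MAP kinases are switched on by phosphorylation of a threonine and a tyrosine in the activation loop, and the phosphatases of this family switch them off by removing both phosphates. DUSP1, DUSP2, DUSP4 and DUSP5 are nuclear and are classically induced by the very signals they end. DUSP6 is cytoplasmic and selective for ERK, and its transcript is a widely used readout of ERK activity. DUSP8, DUSP10 and DUSP16 act mainly on the stress kinases JNK and p38, which TNF activates together with NF-kB. SIK3 is a salt-inducible kinase that phosphorylates CRTC proteins, the coactivators of CREB, and CREB binds the cyclic AMP response element.

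That element, TGACGTCA, and its first 5 letters, TGACG, were therefore looked up in the 250 bases before the RefSeq start of each gene (GRCh38.p14), on both strands. A window was searched for 6 of the 8 genes, and not for DUSP4 and DUSP5. The full element was found in the windows of DUSP1 and DUSP8, against 1.63% of all 34943 windows of that length, and the TGACG letters, which the full element contains, in 21.2% of them. The 4 sequences below are written 5′ to 3′ along the gene's strand. They show both windows with the element, the first of 2 windows of DUSP10, which responds to TNF, and that of DUSP6, which moved the other way. Capitals mark TGACGTCA and TGACG on either strand.
DUSP1 (chr5:172771196-172771445, minus strand): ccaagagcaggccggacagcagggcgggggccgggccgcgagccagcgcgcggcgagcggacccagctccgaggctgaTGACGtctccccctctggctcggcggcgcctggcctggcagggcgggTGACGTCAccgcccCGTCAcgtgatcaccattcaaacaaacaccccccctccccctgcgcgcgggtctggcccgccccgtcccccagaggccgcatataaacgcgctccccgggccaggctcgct
DUSP8 (chr11:1572272-1572521, minus strand): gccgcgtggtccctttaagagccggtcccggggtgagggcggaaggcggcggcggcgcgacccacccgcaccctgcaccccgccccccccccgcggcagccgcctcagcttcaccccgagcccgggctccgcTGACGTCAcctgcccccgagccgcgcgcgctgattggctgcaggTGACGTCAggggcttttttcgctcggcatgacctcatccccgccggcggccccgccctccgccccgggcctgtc
DUSP10 (chr1:221742090-221742339, minus strand): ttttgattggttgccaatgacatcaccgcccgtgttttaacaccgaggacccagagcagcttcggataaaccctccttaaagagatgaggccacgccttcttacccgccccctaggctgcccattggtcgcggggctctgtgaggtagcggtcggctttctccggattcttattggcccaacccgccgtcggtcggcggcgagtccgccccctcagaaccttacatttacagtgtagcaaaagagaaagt
DUSP6 (chr12:89352502-89352751, minus strand): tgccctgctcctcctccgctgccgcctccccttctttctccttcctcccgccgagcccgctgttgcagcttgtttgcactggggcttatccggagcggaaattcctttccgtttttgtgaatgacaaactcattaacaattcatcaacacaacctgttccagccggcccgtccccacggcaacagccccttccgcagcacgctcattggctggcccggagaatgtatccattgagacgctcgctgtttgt
In DUSP1 the full element began 125 bases before the start, with further TGACG letters 172 and 111 bases before it. In DUSP8 full elements began 118 and 74 bases before the start. Neither the element nor TGACG was in the windows of DUSP2, DUSP6, DUSP10 or DUSP16. GGGANNNNCC, a loose pattern for an NF-kB site that leaves 4 letters free, was in the windows of DUSP6 (86 bases before the start) and DUSP16 (34 bases). It was also in 22.6% of all windows. The full letters of an NF-kB site were not searched, so these matches do not show such a site. TGANTCA, the letters of an AP-1 site, were in none of the windows searched, against 6.59% of all. By the gene positions given below, the DUSP6 window and the DUSP10 window not printed lie within their genes. The printed DUSP10 window overlaps its gene in part. A match describes letters in a sequence and not a bound site.

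Libraries held between 13535825 and 22699756 gene counts. Multimapping reads made up 4.94 to 45.3% of reads and were higher in replicate 2 of every group, and no-feature reads made up 16.5 and 17.1% in the SIK3 4 h libraries, against 8.35 to 10.5% elsewhere. The part of either in the results was not tested. SIK3, the siRNA's target, was at 16.3 to 24.0 CPM (CPM is the count scaled to the library total, here with TMM factors) in the 6 SIK3 libraries, against 34.3 to 68.7 CPM in the 6 Scr1 libraries, with no overlap. The log2 differences were -1.29, -1.43 and -1.27 without TNF, at 30 min and at 4 h (edgeR adjusted p = 0.0231, 0.0146 and 0.0244). They lay between -1.76 and -0.736 without each library in turn. The call was lost in 2 of those 12 fits without TNF, in 2 at 30 min and in 3 at 4 h. Libraries titled siAS1 unstimulated were at 42.5 and 68.7 CPM, and those titled siCtrl1 with TNF for 4 h at 17.3 and 24.0 CPM. SIK3 levels thus parted the libraries by file name and not by title. The keratins KRT8, KRT18 and KRT19 lay at 717 CPM or more in every library, while PRSS1, CPA1 and CELA3A of acinar cells were at 0, and KRT7 and MUC1 were below 12 CPM. Of the leukocyte markers PTPRC and CD3E had at most 1 count and CD14 at most 10. Of the fibroblast markers COL1A1 lay at 5.10 to 15.4 CPM, LUM at 0.133 to 1.27 CPM and DCN at up to 0.136 CPM, and the endothelial markers PECAM1 and CDH5 were below 1 CPM.

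**Figure D1:**
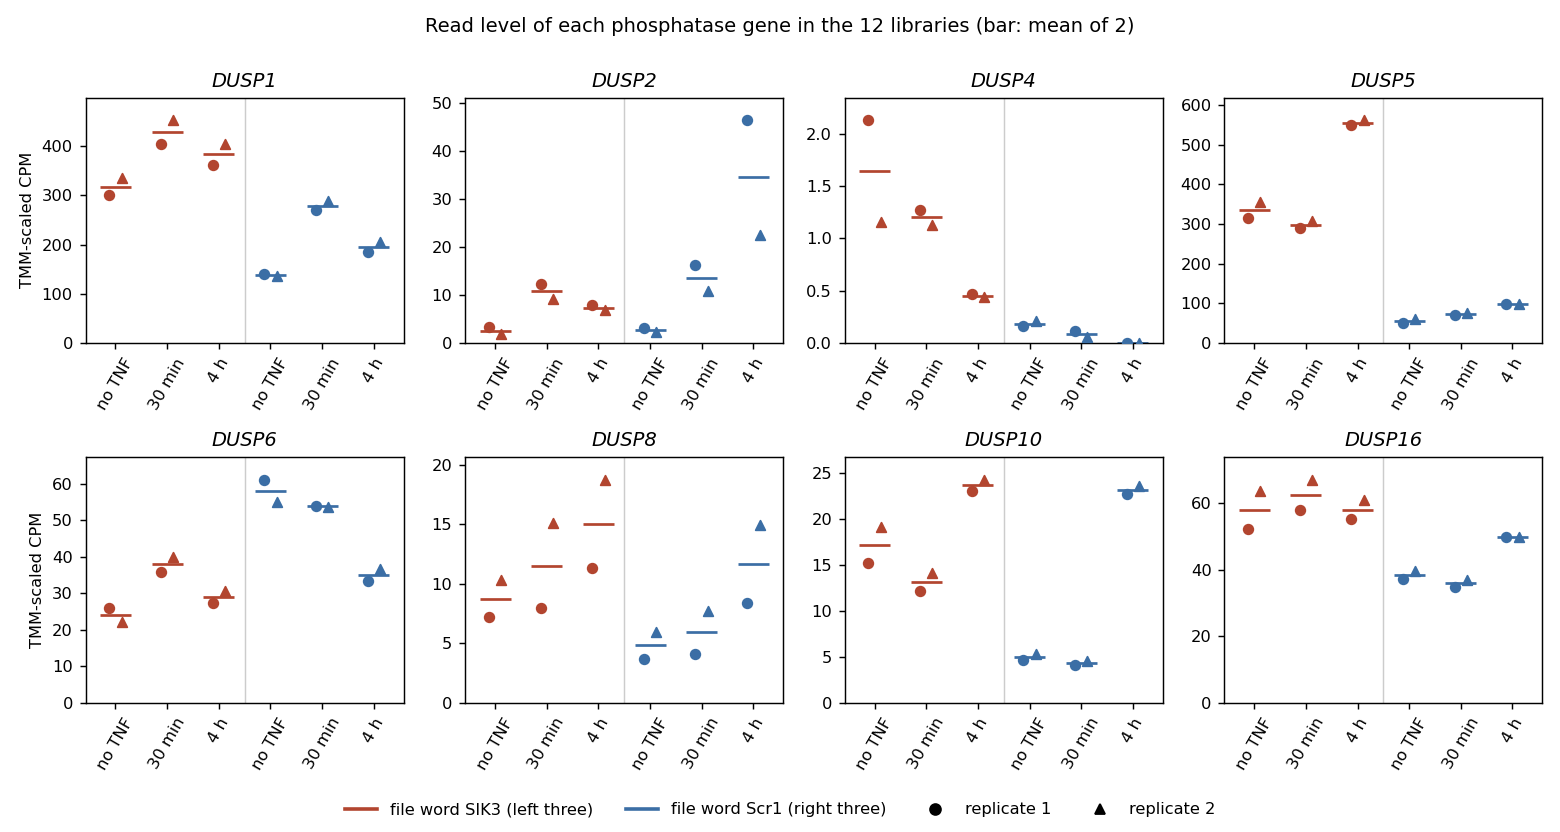
Level of each phosphatase gene in every library, in TMM-scaled CPM on an axis of its own that starts at 0, with SIK3 libraries on the left of each panel and Scr1 libraries on the right. Circles are replicate 1, triangles replicate 2 and bars the mean of 2. DUSP5 lies between 289 and 563 CPM in SIK3 libraries and between 51.3 and 99.4 CPM in Scr1 libraries, while DUSP10 meets at 22.8 to 24.3 CPM in both at 4 h.

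The comparison of SIK3 with Scr1 libraries asked how these genes differ when SIK3 is targeted, at each TNF time. DUSP1 and DUSP5 rose at all 3 times, and of the 7 genes tested DUSP5 rose most, by 4.03- to 6.03-fold. DUSP10 and DUSP16 rose without TNF and at 30 min. DUSP6 fell without TNF and at 30 min, and DUSP2 fell at 4 h. Changes were tested with edgeR's quasi-likelihood test, and every adjusted p below is its Benjamini-Hochberg value over all 16695 genes unless another tool is named. In these bulk libraries a change in the number of cells that make a transcript and in its amount per cell cannot be told apart.

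Without TNF, 4 of the 7 genes rose and 1 fell, where 18.9% of all genes tested rose and 19.8% fell. At 30 min 4 rose and 1 fell, against 18.2% and 19.6% of all genes. At 4 h 2 rose and 1 fell, against 19.6% and 19.9%. The median log2 difference of the 7 was 0.87 without TNF, 0.80 at 30 min and 0.22 at 4 h, beside medians of 0.01, -0.01 and 0.03 over all genes. Where calls are this common, a call by itself sets no gene apart. The calls of all genes rose to 58.4% without TNF, 58.5% at 30 min and 58.8% at 4 h when the replicate number was added as a block, and those of the members to 6 of 7 at each time.

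DUSP5 (ENSG00000138166, chromosome 10, 110497838 to 110511544, plus strand) encodes a nuclear phosphatase specific for ERK. In SIK3 libraries it was at 314 and 355 CPM without TNF, 289 and 307 CPM at 30 min, and 549 and 563 CPM at 4 h. In Scr1 libraries it was at 51.3 and 59.7 CPM without TNF, 71.7 and 76.1 CPM at 30 min, and 98.2 and 99.4 CPM at 4 h. The lowest SIK3 library was far above the highest Scr1 library. The log2 difference was 2.59 ± 0.098 (SE of the fit) without TNF, a 6.03-fold rise (adjusted p = 4.57e-07). At 30 min it was 2.01 ± 0.098 (adjusted p = 1.24e-06), and at 4 h 2.49 ± 0.098 (adjusted p = 8.47e-07).

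DUSP1 (ENSG00000120129, chromosome 5, 172768090 to 172771195, minus strand) is an immediate early gene whose product acts on p38, JNK and ERK in the nucleus. SIK3 libraries held 301 and 335 CPM without TNF, 404 and 453 CPM at 30 min, and 362 and 405 CPM at 4 h. Scr1 libraries held 140.3 and 136 CPM without TNF, 269 and 289 CPM at 30 min, and 186 and 205 CPM at 4 h. The groups did not overlap at any time, and the SIK3 libraries without TNF lay above all Scr1 libraries. DUSP1 rose by 1.20 ± 0.10 on the log2 scale without TNF (2.30-fold, adjusted p = 1.97e-05). The differences were 0.62 ± 0.10 at 30 min (adjusted p = 0.00111) and 0.97 ± 0.10 at 4 h (adjusted p = 8.11e-05).

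DUSP4 (ENSG00000120875, chromosome 8, 29333064 to 29350668, minus strand), whose nuclear product acts on ERK, JNK and p38, was barely expressed. SIK3 libraries were at 2.13 and 1.16 CPM without TNF, 1.27 and 1.13 CPM at 30 min, and 0.465 and 0.441 CPM at 4 h. Scr1 libraries were at 0.159 and 0.212 CPM without TNF, 0.11 and 0.0536 CPM at 30 min, and had no read at 4 h. The groups rested on 68 against 6 counts without TNF, 48 against 3 at 30 min, and 15 against 0 at 4 h. The ratio of scaled counts was 9.7 without TNF (exact 95% interval 4.23 to 27.4) and 14.7 at 30 min (4.75 to 74), and these intervals cover counting error only. At 4 h, with 3 counts over the group in place of 0, DUSP4 was 4.39-fold higher, a value with no interval that takes the 15 counts as exact.

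DUSP2 (ENSG00000158050, chromosome 2, 96143166 to 96145440, minus strand) encodes a nuclear phosphatase first known from activated T cells. It was at 3.30 and 1.77 CPM in SIK3 libraries, against 3.17 and 2.19 CPM in Scr1 libraries, without TNF. At 30 min it was at 12.4 and 9.12 CPM, against 16.3 and 10.9 CPM in Scr1 libraries. These pairs of groups overlap. The log2 differences of -0.05 (95% interval -1.07 to 0.97, adjusted p = 0.943) and -0.34 (-1.17 to 0.49, adjusted p = 0.511) did not pass. At 4 h DUSP2 was at 7.83 and 6.78 CPM in SIK3 libraries, against 46.5 and 22.6 CPM in Scr1 libraries. The groups were apart although the Scr1 replicates differed widely, and DUSP2 fell by 2.25 ± 0.37 on the log2 scale (adjusted p = 0.00136).

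DUSP6 (ENSG00000139318, chromosome 12, 89347232 to 89353271, minus strand) went the other way from the nuclear ERK phosphatase DUSP5. SIK3 libraries were at 25.96 and 22.04 CPM without TNF, 35.9 and 40.0 CPM at 30 min, and 27.3 and 30.4 CPM at 4 h. Scr1 libraries were at 61.1 and 54.9 CPM without TNF, 54.0 and 53.7 CPM at 30 min, and 33.3 and 36.5 CPM at 4 h. The SIK3 group was below its Scr1 group at each time, by a gap that was widest without TNF. DUSP6 fell by 1.27 ± 0.12 without TNF on the log2 scale (adjusted p = 3.53e-05) and by 0.50 ± 0.12 at 30 min (adjusted p = 0.00776). The 30 min call was lost without replicate 1 of the SIK3 30 min libraries (adjusted p = 0.0553). The 4 h difference of -0.27 (95% interval -0.54 to -0.004, adjusted p = 0.1) did not pass, and it passed with the replicate block (adjusted p = 0.0207).

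DUSP10 (ENSG00000143507, chromosome 1, 221701424 to 221742176, minus strand) encodes a phosphatase of JNK and p38. It was at 15.2 and 19.1 CPM without TNF, 12.2 and 14.2 CPM at 30 min, and 23.1 and 24.3 CPM at 4 h in SIK3 libraries. In Scr1 libraries it was at 4.65 and 5.30 CPM without TNF, 4.11 and 4.50 CPM at 30 min, and 22.8 and 23.6 CPM at 4 h. The groups lay far apart at the first 2 times and overlapped at 4 h. The log2 rise was 1.78 ± 0.15 without TNF (3.44-fold, adjusted p = 2.16e-05) and 1.61 ± 0.15 at 30 min (adjusted p = 4.27e-05). At 4 h the difference was 0.03, with a 95% interval of -0.29 to 0.36 (adjusted p = 0.877).

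DUSP16 (ENSG00000111266, chromosome 12, 12474210 to 12562383, minus strand), which encodes a phosphatase acting chiefly on JNK, had the lowest ratio of highest to lowest group mean of the 7 genes, 1.74. SIK3 libraries were at 52.2 and 63.6 CPM without TNF, 57.9 and 67.1 CPM at 30 min, and 55.2 and 60.9 CPM at 4 h. Scr1 libraries were at 37.1 and 39.7 CPM without TNF, 34.8 and 37.0 CPM at 30 min, and 49.8 and 49.9 CPM at 4 h. All SIK3 libraries were above all Scr1 libraries. The log2 rise was 0.59 ± 0.12 without TNF (adjusted p = 0.00379) and 0.80 ± 0.12 at 30 min (adjusted p = 0.000661). The 4 h difference of 0.22 ± 0.12 did not pass (adjusted p = 0.183), but did with the replicate block (adjusted p = 0.0181).

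DUSP8 (ENSG00000184545, chromosome 11, 1554044 to 1571920, minus strand), a phosphatase gene for JNK and p38, was higher in replicate 2 than in replicate 1 of every group. SIK3 libraries were at 7.19 and 10.3 CPM without TNF, 7.94 and 15.1 CPM at 30 min, and 11.3 and 18.7 CPM at 4 h. Scr1 libraries were at 3.65 and 5.94 CPM without TNF, 4.11 and 7.66 CPM at 30 min, and 8.38 and 14.9 CPM at 4 h. Groups overlapped at 4 h, and at the other times the lower SIK3 library was just above the higher Scr1 library. The log2 differences were 0.87 ± 0.465, 0.96 ± 0.45 and 0.38 ± 0.44 at the 3 times, and the adjusted p was 0.176, 0.122 and 0.537. Within replicate numbers, with the block, DUSP8 passed at each time, with adjusted p of 2.28e-05, 1.84e-06 and 0.0121. Its annotated pseudogene DUSP8P5 held 136 counts over all libraries beside 1994 for DUSP8, and how reads of the pair were split is not known.

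**Figure D2:**
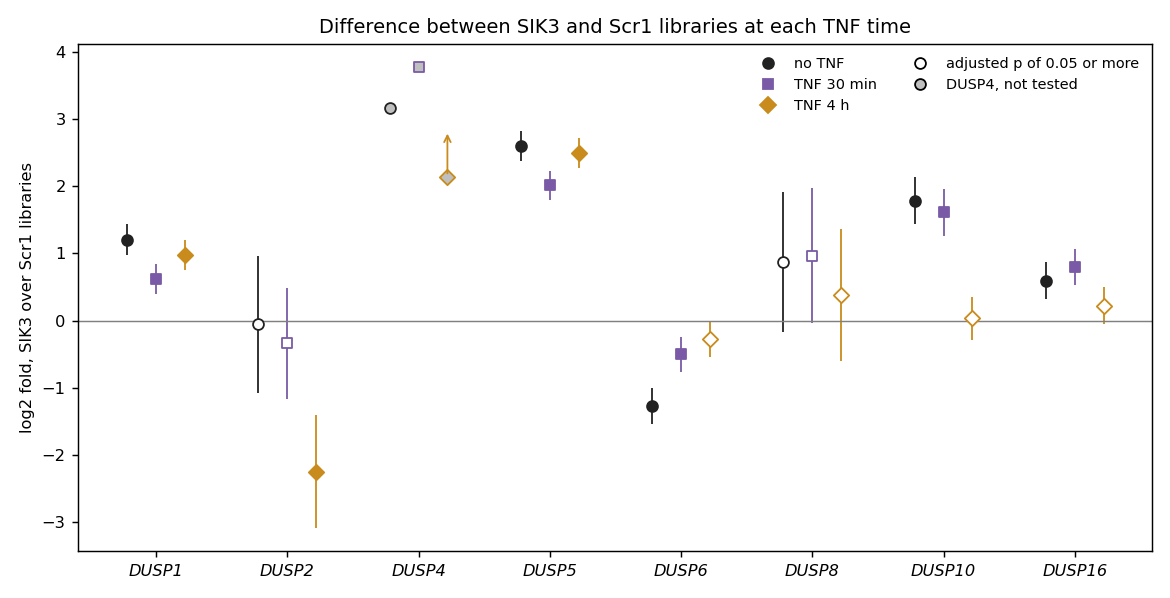
Log2 fold difference of each gene between SIK3 and Scr1 libraries without TNF (circles), at TNF 30 min (squares) and at TNF 4 h (diamonds); filled symbols have an adjusted p under 0.05 and lines are 95% intervals of the fit. DUSP4 is in grey, with no test or interval, and its 4 h symbol with an arrow is the 4.39-fold value with 3 counts in place of 0. DUSP5 stays above 2 on the log2 scale at all times, and the DUSP10 difference is at 0.03 at 4 h.

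The same libraries were compared along time. The 30 min and 4 h groups are each set against the same libraries without TNF, so the 2 comparisons share those libraries. In SIK3 libraries DUSP5 rose 1.66-fold after 4 h. In Scr1 libraries DUSP1 rose 2.02-fold after 30 min. After 4 h in Scr1 libraries DUSP2 rose 12.7-fold, DUSP10 4.66-fold, DUSP5 1.78-fold and DUSP1 1.41-fold, while DUSP6 fell.

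In SIK3 libraries none of the 7 genes was called by edgeR at 30 min, against 0.15% of all genes in either direction; 4 of the 7 had an unadjusted p under 0.05, and DESeq2's Wald test called 3. At 4 h 1 rose, against 3.65% of all genes. At 30 min in Scr1 libraries 1 of the 7 genes rose, where 0.27% of all genes tested rose. At 4 h 4 rose and 1 fell, against 5.53% and 3.46% of all genes. Of all genes called there, 61.5% were higher with TMM scaling and 49.8% with library totals. The replicate block raised the calls of members to 3 and 5 at 30 min and 4 h in SIK3 libraries, and to 3 and 7 in Scr1 libraries. The same fit called 3.37 and 21.8% of all genes in SIK3 libraries, and 2.78 and 23.5% in Scr1 libraries.

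In SIK3 libraries DUSP1 was at 301 and 335 CPM without TNF, 404 and 453 CPM at 30 min, and 362 and 405 CPM at 4 h. Both TNF groups were above the group without TNF. The log2 changes of 0.43 ± 0.10 at 30 min (adjusted p = 0.401) and 0.27 ± 0.10 at 4 h (adjusted p = 0.206) did not pass, and did with the block (adjusted p = 2.8e-05 and 0.000902). In Scr1 libraries DUSP1 was also highest at 30 min, at 140.3 and 136 CPM without TNF, 269 and 289 CPM at 30 min, and 186 and 205 CPM at 4 h. Its log2 change there was 1.02 ± 0.10 at 30 min (adjusted p = 0.00227) and 0.50 ± 0.10 at 4 h (adjusted p = 0.0139). The 4 h call was lost without either Scr1 library without TNF or without replicate 2 of the Scr1 4 h libraries (adjusted p of up to 0.115).

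DUSP2 was higher in each TNF library than in any library without TNF, for both siRNAs. In SIK3 libraries the log2 change was 2.04 ± 0.41 at 30 min (adjusted p = 0.235, and 3.91e-07 with the block) and 1.48 ± 0.42 at 4 h (adjusted p = 0.0905, and 1.35e-05 with the block). In Scr1 libraries it was 2.32 ± 0.415 at 30 min (adjusted p = 0.0804, and 3.44e-08 with the block) and 3.67 ± 0.41 at 4 h (adjusted p = 0.000429). Replicate 1 was above replicate 2 in every group.

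DUSP5 rose at 4 h in both sets, by 0.73 ± 0.097 on the log2 scale in SIK3 libraries (adjusted p = 0.0032) and by 0.83 ± 0.099 in Scr1 libraries (adjusted p = 0.00055). At 30 min its changes were -0.17 ± 0.097 in SIK3 libraries and 0.41 ± 0.099 in Scr1 libraries, and neither passed (adjusted p = 1 and 0.311). The Scr1 change passed with the block (adjusted p = 0.000145). DUSP4 had 15 counts at 4 h against 68 without TNF in SIK3 libraries, a ratio of scaled counts of 0.257 (exact interval 0.136 to 0.453, counting error only). In Scr1 libraries it had 0 counts at 4 h against 6 without TNF, at least 1.76-fold lower.

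In SIK3 libraries the DUSP6 changes were positive, 0.66 ± 0.12 on the log2 scale at 30 min (adjusted p = 0.126, and 0.00014 with the block) and 0.26 ± 0.12 at 4 h (adjusted p = 0.312). In Scr1 libraries DUSP6 changed by -0.11 at 30 min, with a 95% interval of -0.37 to 0.15, and fell by 0.73 ± 0.12 at 4 h (adjusted p = 0.00375).

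Of the JNK and p38 phosphatases, DUSP10 responded late. In SIK3 libraries its 4 h change was 0.47 ± 0.14 on the log2 scale (adjusted p = 0.115, and 0.00104 with the block). In Scr1 libraries it rose by 2.22 ± 0.15 at 4 h (adjusted p = 2.32e-05), to the level that SIK3 libraries also held at 4 h. At 30 min the change was -0.38 ± 0.15 in SIK3 libraries and -0.20 ± 0.16 in Scr1 libraries, and neither passed. DUSP8 changed at 4 h by 0.80 ± 0.44 in SIK3 libraries and 1.29 ± 0.465 in Scr1 libraries, with adjusted p of 0.43 and 0.149, and both passed with the block (9.88e-05 and 7.04e-07). DUSP16 changed at 4 h by 0.005 ± 0.12 in SIK3 libraries and 0.38 ± 0.12 in Scr1 libraries (adjusted p = 0.995 and 0.0986), of which the Scr1 change passed with the block (adjusted p = 0.000703).

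**Figure D3:**
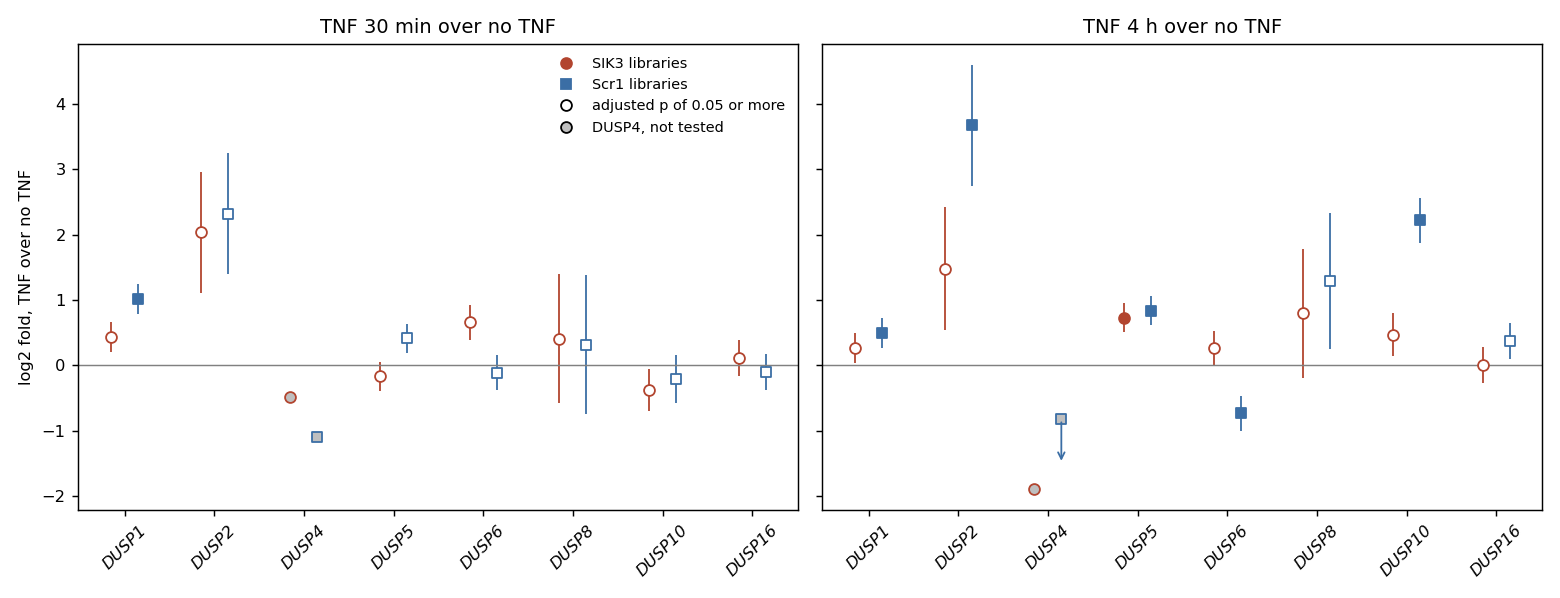
Log2 fold change of each gene after TNF for 30 min (left panel) and 4 h (right panel) over libraries without TNF, in SIK3 libraries (circles) and Scr1 libraries (squares); filled symbols have an adjusted p under 0.05 and lines are 95% intervals of the fit. DUSP4 is in grey, with no test or interval, and its symbol with an arrow is a bound. At 4 h DUSP10 is at 0.47 in SIK3 libraries and 2.22 in Scr1 libraries, and DUSP6 lies on opposite sides of 0.

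Whether the TNF response differed between the siRNAs was tested by the interaction, the log2 response in SIK3 libraries minus that in Scr1 libraries. At 4 h the DUSP10 response was smaller in SIK3 libraries by 1.75 ± 0.21 on the log2 scale (interaction -1.75, adjusted p = 0.00572), and this call held without each library in turn. The DUSP6 response was higher in SIK3 libraries by 1.00 ± 0.17 (adjusted p = 0.0233). Over the 12 fits without a library the DUSP6 difference lay between 0.881 and 1.123, and its call was lost in 9. It was kept without replicate 1 of the SIK3 libraries without TNF and without either SIK3 30 min library. So 1 of the 7 responses was higher and 1 lower in SIK3 libraries, against 0.719% and 0.845% of all genes. The DUSP2 difference of -2.19 ± 0.59 did not pass (adjusted p = 0.136), but did with the block (adjusted p = 3.4e-05), as did the DUSP16 difference of -0.37 ± 0.17 (adjusted p = 0.472, and 0.0244 with the block). With the block 4 members were called, beside 12% of all genes.

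At 30 min edgeR called 0 members and 0% of all genes for the interaction, while 3 members and 317 genes had an unadjusted p under 0.05 and DESeq2's Wald test called 0 members and 6 genes. With the block 3 members were called, beside 0.264% of all genes. The DUSP1 response was then smaller in SIK3 libraries (-0.58, adjusted p = 0.000331), as was that of DUSP5 (-0.58, adjusted p = 0.000414), and that of DUSP6 larger (0.76, adjusted p = 0.00339). The SIK3 4 h libraries that enter the 4 h interactions are also those with the higher share of no-feature reads, whose part was not tested.

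Only the SIK3 4 h libraries and the Scr1 libraries without TNF have the same condition in titles and file names, so they were also compared directly, although siRNA and TNF then change at once. This comparison was added after the data had been seen. DUSP5 rose 10.02-fold (log2 3.32 ± 0.098, adjusted p = 3.71e-07), DUSP10 4.77-fold (2.25 ± 0.15, adjusted p = 7.46e-06) and DUSP1 2.77-fold (1.47 ± 0.10, adjusted p = 8.19e-06). DUSP16 rose 1.51-fold, and DUSP6 fell by 1.01 ± 0.12 on the log2 scale (adjusted p = 0.000144). DUSP8 and DUSP2 also rose, 3.17- and 2.69-fold, with adjusted p of 0.0171 and 0.023. The DUSP8 call was lost without replicate 1 of the Scr1 libraries or replicate 2 of the SIK3 libraries of this pair, and the DUSP2 call without any 1 of the 4 (adjusted p of up to 0.124 and 0.118). DUSP4 was at 0.465 and 0.441 CPM, against 0.159 and 0.212 CPM, a ratio of 2.49 (exact interval 0.913 to 7.83). In all 6 of the 7 genes tested rose and 1 fell, against 20.9% and 20.1% of all genes.

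Read by the titles instead, the SIK3 comparison without TNF is the pair of Scr1 30 min and Scr1 libraries without TNF, where 1 member and 49 genes were called. Of the 70 values of the 7 members over all comparisons, 13 had the opposite direction by titles with a call in at least 1 of the readings. DUSP5 by titles was higher under siAS1 with TNF for 30 min (log2 1.76) and 4 h (0.90). Its difference without TNF was 0.41 and did not pass. By file names the 4 h pair of the titles is the SIK3 4 h against the SIK3 30 min libraries. Mean levels of the SIK3 transcript were close in that pair, at 20.5 and 20.6 CPM (log2 -0.008, edgeR adjusted p = 0.997). The 4 h values by titles therefore do not compare libraries of low and high SIK3. DUSP10 by titles was lower under siAS1 with TNF for 30 min (-0.44, adjusted p = 0.034) and higher at 4 h (0.85, adjusted p = 0.00772).

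To compare levels between genes, CPM was divided by exon length in kilobases. Summed over the 8 genes this came to 310 ± 24.5, 358 ± 24.2 and 434 ± 20.9 CPM per exon kilobase in SIK3 libraries without TNF, at 30 min and at 4 h (SD, n = 2 each). In Scr1 libraries the sums were 113 ± 0.296, 194 ± 6.99 and 179 ± 0.161. DUSP1 and DUSP5 together made up most of the sum in every group. DUSP1 had the largest share in all groups except the SIK3 4 h libraries. The DUSP5 share was 41.3, 31.9 and 49.0% in SIK3 libraries at the 3 times, against 18.8, 14.6 and 21.1% in Scr1 libraries. The DUSP6 share was 1.68, 2.29 and 1.43%, against 11.1, 5.98 and 4.21%. DUSP2 reached 9.99% of the sum in Scr1 libraries at 4 h, between 6.53 and 13.4% in its replicates, and 0.874% in SIK3 libraries at 4 h. These shares are descriptions with no test.

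**Figure D4:**
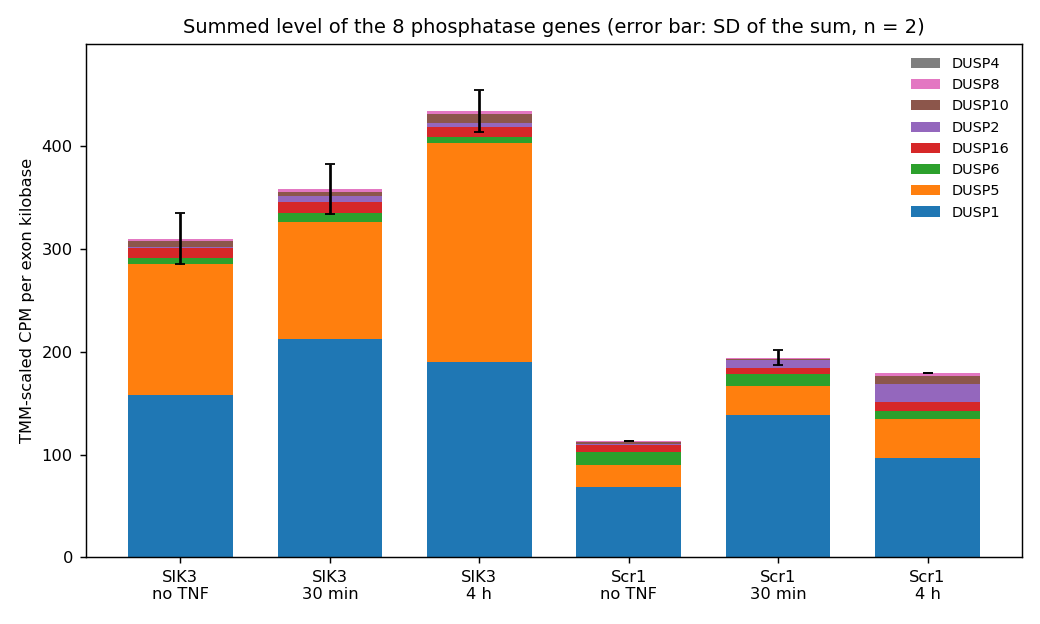
Summed level of the 8 phosphatase genes in each group, as TMM-scaled CPM per exon kilobase, stacked by gene from DUSP1 at the bottom; error bars are the SD of the sum over 2 libraries. The sums are 310, 358 and 434 in SIK3 libraries and 113, 194 and 179 in Scr1 libraries, and DUSP5 makes up 49.0% of the SIK3 4 h bar.

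Set in order of level, each gene ranked the 6 groups differently. For DUSP1 the order from high to low was SIK3 30 min, SIK3 4 h, SIK3 without TNF, Scr1 30 min, Scr1 4 h and Scr1 without TNF, and only the first and second of these groups overlapped. DUSP5 had no overlap between neighbours, from SIK3 4 h through SIK3 without TNF and SIK3 30 min to Scr1 4 h, Scr1 30 min and Scr1 without TNF. For DUSP6 Scr1 without TNF was highest and SIK3 without TNF lowest, with SIK3 30 min and Scr1 4 h overlapping in the middle. DUSP10 put the 4 h groups of both siRNAs on top, overlapping, and both early Scr1 groups last. DUSP2 put Scr1 4 h first and the groups without TNF last, overlapping, as did the 30 min groups with each other. In DUSP16 the SIK3 groups overlapped with each other above the Scr1 groups, and in DUSP8 each group overlapped its neighbour.

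Between members, the correlation of log2 CPM over the 12 libraries, with the mean of each replicate number taken off, was highest for DUSP8 with DUSP10 (r = 0.91) and DUSP5 with DUSP16 (0.88). It was most negative for DUSP6 with DUSP10 (-0.86) and with DUSP5 (-0.83). By the same measure DUSP5 was most like ATAD3B (0.993), LIMD1 (0.992) and RASGRP3 (0.99) among genes of at least 1 CPM. DUSP1 was most like ZNF143 (0.962), RASD1 and the immediate early gene NR4A1, and DUSP2 most like TNF itself (0.933), CSRNP1 and ACADSB. For DUSP10 the closest were JAK1 (0.994), HLA-E and NPTX1, and for DUSP6 SPICE1 (0.98), FAM184A and CIPC. DUSP16 was closest to THOC6 (0.983), KARS and EEF1A1, and DUSP8 to RPS27A (0.968), RRAD and CSRP1. DUSP4 was closest to MITF (0.993), ZNF584 and NTN4. That value largely restates the gap between SIK3 and Scr1 libraries through which DUSP4 was kept, with 6, 3 and 0 counts in its Scr1 groups. The libraries come in 6 groups and share their replicate numbers, so these values describe 12 points that are not independent.

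The canonical members left, DUSP7 and DUSP9, act mainly on ERK in the cytoplasm. DUSP9 was at 3.47 and 3.60 CPM without TNF in SIK3 libraries, against 0.793 and 0.99 CPM in Scr1 libraries, a log2 rise of 1.99 ± 0.47 (adjusted p = 0.00687). It rose at 30 min (2.43 ± 0.52, adjusted p = 0.00356) and 4 h (1.99 ± 0.54, adjusted p = 0.013) too. These rest on few reads, since the Scr1 libraries held 3 and 16 counts at 30 min and 6 and 11 at 4 h. Without each library in turn the 30 min difference lay between 1.67 and 4.02. The calls without TNF and at 4 h were lost without replicate 1 of the Scr1 library at that time, and at 4 h also without replicate 2 of the SIK3 libraries (adjusted p of up to 0.0569 and 0.114). DUSP7 was at 6.23 and 9.93 CPM in SIK3 libraries, against 8.56 and 9.90 CPM in Scr1 libraries, without TNF, and its log2 difference of -0.20 did not pass (95% interval -1.04 to 0.63).

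The kinases these phosphatases act on were compared between SIK3 and Scr1 libraries without TNF, where 18.9% of all genes rose and 19.8% fell. The counts below stand beside those shares, and no list was tested against the others. Of 10 genes of ERK, JNK and p38 kinases 6 rose and 3 fell, with a median log2 difference of 0.58 beside 0.01 over all genes. MAPK3, an ERK gene, rose 4.76-fold (adjusted p = 4.49e-06). MAPK9, a JNK gene, fell to 9.27 ± 0.313 CPM in SIK3 libraries, against 40.8 ± 3.70 CPM in Scr1 libraries (SD, n = 2 each, adjusted p = 1.39e-06). Of 7 MAP2 kinases 1, MAP2K6, which activates p38, rose (log2 0.94, adjusted p = 0.00276). Of 12 MAP3 kinases 5 rose and 1, MAP3K2, fell (-0.81, adjusted p = 9.51e-05). Of 10 kinases activated by MAP kinases 5 rose, with MKNK2 at 2.10-fold (adjusted p = 3.41e-05), and 2 fell, with RPS6KA3 at -1.35 (adjusted p = 1.58e-05). Of the 4 other phosphatases of MAP kinases that were tested, out of 7 listed, DUSP3 (-0.42, adjusted p = 0.00265) and 1 more fell. Of 8 atypical DUSP genes 3 rose and 2 fell, beside 18.9% and 19.8% of all genes, and 1 of those that fell was DUSP22 (-0.42, adjusted p = 0.0116), a call lost without replicate 1 of the Scr1 libraries or replicate 2 of the SIK3 libraries (adjusted p of up to 0.0954).

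After TNF the upstream kinase MAP3K8, which activates the ERK pathway downstream of TNF receptors, was the 1 list gene called at 30 min in Scr1 libraries (log2 0.95, adjusted p = 0.0221). That call was lost without any 1 of the 4 libraries compared and without replicate 2 of the SIK3 4 h libraries (adjusted p of up to 0.306). At 4 h MAP3K8 rose by 1.22 in SIK3 libraries (adjusted p = 0.00121) and by 2.01 in Scr1 libraries (adjusted p = 1.81e-05). MAP2K3, an activator of p38, rose by 0.85 in SIK3 libraries (adjusted p = 0.0076) and 0.84 in Scr1 libraries (adjusted p = 0.00352). The SIK3 call of MAP2K3 was lost without replicate 1 of the SIK3 libraries without TNF or without either SIK3 4 h library (adjusted p of up to 0.0804). In Scr1 libraries at 4 h, 1 of 12 MAP3 kinases rose and 1 fell, 2 of 7 MAP2 kinases and 1 of 10 kinases activated by MAP kinases rose, where 5.53% of all genes rose and 3.46% fell. There RPS6KA2, a ribosomal S6 kinase gene, rose by 1.34 on the log2 scale (adjusted p = 0.00623), MAP3K2 fell by 0.42 (adjusted p = 0.0162) and MAP2K2 rose by 0.425 (adjusted p = 0.0482). The RPS6KA2 call was lost without replicate 1 of the Scr1 libraries without TNF, that of MAP3K2 without replicate 2 of those or either Scr1 4 h library, and that of MAP2K2 in 10 of the 12 fits without a library (adjusted p of up to 0.0633, 0.0975 and 0.266). In SIK3 libraries at 4 h MAP3K5, a kinase upstream of JNK and p38, fell by 0.42 (adjusted p = 0.0452), a call lost in all 12 fits that left out a library (adjusted p of 0.0558 to 0.253). In those libraries 1 of 12 MAP3 kinases rose and 1 fell and 1 of 7 MAP2 kinases rose, where 3.65% of all genes rose and 0.767% fell.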

How the data were processed

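Whole-number counts of reads per gene were deposited by the authors, 1 table per library, and the submitters' processing notes name STAR 2.05b, edgeR and GRCh38. Per the labels' protocols, total RNA was extracted with RNeasy and DNase I and made into libraries with ScriptSeq. The strand setting and the annotation release are not given in the sources used here. Reads of antisense genes overlapping DUSP1, DUSP6 and DUSP8, which held 36, 113 and 54 counts over all libraries, cannot be told apart from theirs without that setting. The 4 summary entries of each table were left out of library sizes. Symbols, positions and exon lengths came from GENCODE 29, in which 3742 identifiers had no name. Promoter sequences are from RefSeq, GRCh38.p14.

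The test was edgeR 4.0.16 in R 4.3.3. Low genes were dropped by filterByExpr (minimum count 10), and TMM scaled the libraries. The 6 groups entered a single quasi-likelihood model without a replicate block, which leaves 6 residual degrees of freedom. Its 7 pairwise and 2 interaction contrasts were adjusted over all genes (Benjamini-Hochberg, 0.05). Errors of log2 changes are SEs of the fit, with 95% intervals. Conditions followed the file names. Replicates of a group differed by a chi-square of 16.8 to 34.3 per degree of freedom, so the p-values cover a spread above counting error, and the labels do not say whether biological replicates were separate cultures.

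Replicate numbers come from the titles. The deviation of replicate 1 from its group mean correlated across genes in all 15 pairs of groups (0.313 to 0.484, median 0.385). For members and counts over all genes, the blocked value is therefore given where it changes a call or moves a count of calls by over 1.5 times. List counts are given without the block, and some depend on it. Between siRNAs without TNF the block called 3 MAP2 kinases higher and 0 lower, and 6 MAP3 kinases higher and 4 lower. It called 58.4% of all genes there.

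Named are the members, SIK3, DUSP7 and DUSP9, the genes most like each member, and up to 3 called genes of smallest p per list. Members and lists were chosen with earlier results of these data known. Other settings tried were a replicate block, the size factors and the Wald test of DESeq2 1.42.0, library totals, no filter, conditions taken from titles, and leaving out each library.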

Additional observations from a re-analysis of the deposited data

Results flagged for a closer look

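Tests of the interaction found a different 4 h TNF response between SIK3 and Scr1 libraries for DUSP6 and DUSP10. For DUSP6 the difference was 1.00 on the log2 scale (edgeR adjusted p = 0.0233), from a change of 0.26 in SIK3 libraries and -0.73 in Scr1 libraries. The DUSP6 call was lost in 9 of the 12 fits without a library (adjusted p of up to 0.122), and the DUSP10 call held in all 12. For DUSP10 it was -1.75 (edgeR adjusted p = 0.00572), from a change of 0.47 in SIK3 libraries and 2.22 in Scr1 libraries. The DUSP10 level was close in both 4 h groups, at 23.7 CPM in SIK3 libraries and 23.2 CPM in Scr1 libraries, and apart without TNF, at 17.1 CPM in SIK3 libraries and 4.98 CPM in Scr1 libraries. With conditions from the titles both differences had the opposite sign, -0.29 for DUSP6 and 1.05 for DUSP10.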

How the results depend on the processing

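Of the 70 values of the 7 members tested (DUSP4 is not counted) in 10 comparisons, all 70 kept their call and, where called, their direction with DESeq2 size factors, 69 with library totals, 63 with DESeq2's Wald test and 61 without the filter on low counts. Library totals added DUSP16 between siRNAs at 4 h (0.32, adjusted p = 0.0477) and shifted the median of all genes there to 0.13, against 0.03 with TMM. Leaving out each library kept 817 of 840 member values, lost 19 calls and added 4. The cause of these changes was not tested.

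With the replicate block, 49 of the 70 member values kept their call, 21 gained one and none was lost. The block called 563 genes and 3 members at 30 min and 3642 and 5 at 4 h in SIK3 libraries, and 464 and 3 at 30 min and 3928 and 7 at 4 h in Scr1 libraries. Between siRNAs it called 9746 genes without TNF, 9771 at 30 min, and 6 members at 4 h. For the interactions it called 44 genes and 3 members at 30 min and 1996 and 4 at 4 h. DESeq2's Wald test called 57 genes and 3 members at 30 min and 2 members at 4 h in SIK3 libraries, 85 and 2 at 30 min in Scr1 libraries, and 6 genes for the 30 min interaction. Without the filter 90 genes and 2 members were called at 30 min and 1109 and 3 at 4 h in SIK3 libraries, 101 and 2 at 30 min in Scr1 libraries, 18 genes for the 30 min interaction and 505 for that at 4 h.

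Without 1 library at a time, the calls in SIK3 libraries were 6 to 25 genes and 0 members at 30 min, and 212 to 699 genes and 1 to 2 members at 4 h. In Scr1 libraries they were 22 to 44 genes and 1 to 2 members at 30 min, and 857 to 1360 genes and 4 to 5 members at 4 h. Between siRNAs they were 4835 to 6392 genes and 5 members without TNF, 4668 to 6325 genes and 4 to 5 members at 30 min, and 4766 to 6669 genes and 3 members at 4 h. The 4 h interaction had 61 to 189 genes and 1 to 2 members.

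With conditions from the titles, every comparison but 1 is made of other libraries. In targeted cells 6687 genes and 5 members were called at 30 min, and 6980 and 6 at 4 h. In control cells 1501 genes and 5 members were called at 30 min, and 6330 genes at 4 h. Between siRNAs 49 genes and 1 member were called without TNF, and 1182 genes at 4 h. The interactions called 4760 genes and 2 members at 30 min, and 576 genes at 4 h. These log2 values had the opposite direction by titles, with a call in at least 1 of the readings. Entries of DUSP4 also came in through such a call, although it is described by counts alone here. Its Scr1 groups held 6, 3 and 0 counts, so its values give a direction and no test. In targeted cells they were DUSP2 (-2.38), DUSP4 (4.26), DUSP5 (2.18), DUSP6 (-1.16) and DUSP10 (1.99) at 30 min, and DUSP4 (2.38) and DUSP6 (-0.90) at 4 h. In control cells they were DUSP10 at 30 min (2.22), DUSP4 (2.67) and MAP2K3 (-0.13) at 4 h. Between siRNAs without TNF they were DUSP4 (-1.10), DUSP10 (-0.20), DUSP16 (-0.10), DUSP9 (-0.77), SIK3 (0.23), MAP3K2 (0.15) and RPS6KA3 (0.007). Between siRNAs they were DUSP10 at 30 min (-0.44), and DUSP1 (-0.16), DUSP4 (-1.39) and DUSP9 (-0.24) at 4 h. For the interactions they were DUSP5 at 30 min (1.35), and DUSP6 (-0.29) and DUSP10 (1.05) at 4 h.

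Depth limits DUSP4 most, since 3 counts over a group correspond to 0.0749 to 0.103 CPM and its Scr1 groups held 6, 3 and 0 counts.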
